A study of Mus musculus with 12 samples.

Results

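The extracellular proteases and their inhibitors are the enzymes that cut extracellular matrix and cell-surface proteins, together with the proteins that restrain them. The members were chosen by gene symbol alone, as every gene with a probe set annotated to exactly 1 symbol beginning with Mmp, Adam, Adamts, Timp or Serpin, consisting of Cts and 1 letter, or equal to Plau, Plaur or Plat. This gave 65 genes with 105 probe sets, of 20523 probe sets in the matrix, of which 18824 carry 1 symbol (11015 genes). They comprise 9 matrix metalloproteinase (MMP) genes with 16 probe sets, 12 ADAM genes with 20, 9 ADAMTS genes with 13, 4 ADAMTS-like genes with 5, 3 TIMP genes with 10, 11 cathepsin genes with 19 and 15 serpin genes with 20. Plasminogen activation is represented by Plat and Plaur, with 2 probe sets. Plau, Serpine2, Timp4, Mmp9, Mmp13 and Ctss were not analysed here. No member was left out by a filter on low values, and 52 of the 105 probe sets had a mean above that of the median probe set, including all 10 TIMP probe sets and 0 of the 13 for ADAMTS.

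MMPs, ADAMs and ADAMTS enzymes are zinc proteases. MMPs degrade collagens and basement membrane, ADAMs mainly shed membrane proteins such as growth factors and Notch receptors, and ADAMTS enzymes cleave proteoglycans. TIMPs block these enzymes, serpins trap serine proteases such as plasminogen activators and thrombin, and cathepsins work mostly in lysosomes but can be secreted. Endothelial cells use them when a vessel sprouts through its basement membrane, and ETS factors are known to bind promoters of several protease genes beside AP-1 factors.

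The arrays measured transcripts of cultured aortic endothelial cells of mice aged 4 weeks, with loss of Ets1, of Ets2 or of both of these ETS factors as the variable. WT cells were Ets1+/+ Ets2+/+ and received a lentivirus coding for eGFP. The Ets1KO cells were Ets1-/- Ets2fl/fl with the same eGFP virus, so their floxed Ets2 alleles were not exposed to Cre. The Ets2KO cells were Ets1+/+ Ets2fl/fl with a virus coding for eGFP and Cre, and the DKO cells were Ets1-/- Ets2fl/fl with that virus. Loss of Ets2 and exposure to Cre therefore cannot be told apart, and the WT controls carry no floxed allele. Short descriptions of the Ets1KO and Ets2KO samples call them wild type, whereas titles and genotypes call them null, which was followed. The titles call the 3 arrays of a group biological replicates, without saying whether these are separate animals or separate cultures, so p-values measure the spread between these arrays.

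Of 12 deposited columns, 11 were analysed, because in 20521 probe sets the values of DKO replicate 3 are the average of replicates 1 and 2 (tolerance 1e-05), which leaves 2 DKO arrays. Array medians were 8.29 to 8.30 in DKO and 9.05 to 9.15 elsewhere on the deposited log2 scale. Each level below is therefore a relative level, the deposited log2 value minus the median of its array, and a relative difference is the difference of group means of relative levels. Differences of the deposited values are named as such. A probe set is called at a limma Benjamini-Hochberg adjusted p below 0.05, adjusted over all 20523 probe sets. The targeted genes were read on the deposited scale. Ets1 (1452163_at) was 10.26, 9.84 and 10.06 in WT, 8.31, 8.76 and 9.17 in Ets1KO, 9.50, 9.55 and 9.88 in Ets2KO, and 10.02 and 10.29 in DKO. Ets2 (1416268_at) was 9.72, 10.01 and 10.70 in WT, 10.28, 10.37 and 10.54 in Ets1KO, 9.63, 9.35 and 10.13 in Ets2KO, and 11.02 and 9.63 in DKO. Of the 4 Ets1 probe sets, 1452163_at and 1426725_s_at thus lay among or just above the WT values in DKO, while 1422027_a_at was 6.49 and 7.05 in DKO against 8.69 to 8.83 in WT and 1422028_a_at 7.40 and 7.98 against 8.22 to 8.48. Relative to array medians, 1422027_a_at still lay below WT in DKO, 1422028_a_at overlapped the WT values, and the other Ets1 probe sets lay above WT. Ets2 overlapped between WT and Ets2KO. The groups are therefore named as labelled, and the position of these probe sets relative to the deleted exons is not known here. By the sex-linked transcripts Xist and Eif2s3y, WT 1 and the 3 Ets2KO arrays resembled males (Eif2s3y 9.30 to 10.2) and the other 7 females (Eif2s3y 3.12 to 3.66). Of 14 endothelial markers 4 were measured, with array means of -1.49 to -0.30 on the relative scale, and Kdr lay below the median in every array. Eng was 1.50, 0.69 and -0.90 in WT and -0.83, -0.85 and -0.82 in Ets1KO. In Ets2KO it was 0.84, 1.77 and 1.33, and in DKO -0.86 and -0.90. Flt1 lay above the median in Ets2KO replicate 2 and DKO 2, and Egfl7 in Ets2KO replicate 3. The 8 fibroblast markers had array means of 0.10 to 1.95, with 4 to 6 of the 8 above the median in an array. Of these, Col1a1, Col1a2, Col3a1 and Pdgfra lay above it in every array and Lum below it in every array. In bulk samples such as these, fewer cells of a type and less RNA per cell cannot be told apart.

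Of the 65 genes, 45 had a promoter in the RefSeq table for GRCm38.p6, with 52 windows. Between the single losses 6 member genes were called, all higher in Ets2KO than in Ets1KO, and most of these calls depended on single arrays (below). For 5 of these genes the last 150 bases before the annotated start are shown, 5′ to 3′ on the strand of the gene, to set these promoters side by side. Mmp19 is the sixth. Capitals mark GGAA, the core letters of an ETS site, or TTCC, the same letters on the other strand. Adam23 is at chr1:63445741-63445890 (plus strand), Adam22 at chr5:8368161-8368310 (minus), Serpini1 at chr3:75557343-75557492 (plus), Serpina3n at chr12:104406558-104406707 (plus) and Timp3 at chr10:86300262-86300411 (plus).
Adam23: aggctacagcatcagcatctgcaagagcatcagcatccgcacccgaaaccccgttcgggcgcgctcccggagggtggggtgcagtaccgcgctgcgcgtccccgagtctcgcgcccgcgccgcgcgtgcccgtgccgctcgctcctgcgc
Adam22: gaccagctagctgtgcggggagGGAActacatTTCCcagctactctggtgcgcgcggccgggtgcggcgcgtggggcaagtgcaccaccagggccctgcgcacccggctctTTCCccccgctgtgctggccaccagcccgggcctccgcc
Serpini1: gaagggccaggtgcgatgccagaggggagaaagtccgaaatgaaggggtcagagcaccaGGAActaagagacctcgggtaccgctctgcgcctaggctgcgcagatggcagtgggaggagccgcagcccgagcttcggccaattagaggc
Serpina3n: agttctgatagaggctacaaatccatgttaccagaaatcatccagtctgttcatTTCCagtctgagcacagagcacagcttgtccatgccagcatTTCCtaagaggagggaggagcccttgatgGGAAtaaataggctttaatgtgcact
Timp3: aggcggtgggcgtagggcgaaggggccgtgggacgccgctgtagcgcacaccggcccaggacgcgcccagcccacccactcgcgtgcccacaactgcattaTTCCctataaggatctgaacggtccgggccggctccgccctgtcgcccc
The 150 bases hold 0 such matches for Adam23, 3 for Adam22, 1 for Serpini1, 3 for Serpina3n and 1 for Timp3. In the 250 bases before the start the counts were 0, 3, 2, 6 and 3. These counts describe letters and not bound sites.

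Over all 52 member windows of 250 bases, searched on both strands, GGAA occurred in 92.3%, beside 93.4% of the 32851 windows in the table. The longer ETS letters CAGGAAGT, which contain GGAA, occurred in 3.85% of member windows (Ctso and Timp1) and 2.69% of all windows. CCGGAAGT, which also contains GGAA, occurred in 0% and 2.88%. The AP-1 letters TGANTCA occurred in 13.5% of member windows and 6.75% of all windows. The members with AP-1 letters were Adam19, Mmp3, Mmp10, Plaur, Serpinb2 and Serpinb8.

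Ets2KO was compared directly with Ets1KO to set the single losses against each other. Higher in Ets2KO were 7 member probe sets of 6 genes and lower were 0, that is 6.67% of the members, where 2.54% of all probe sets were called (1.45% higher and 1.09% lower). These genes were the ADAMs Adam22 and Adam23, the metalloproteinase Mmp19, the inhibitor Timp3 and the serpins Serpina3n and Serpini1. In 34 of 105 member probe sets (32.4%) the arrays of the groups did not overlap, where 35.5% of all did, and 29 of the 34 were higher in Ets2KO (27.6% of the members, beside 20% of all probe sets) and 5 lower (4.76% beside 15.5%). By limma adjusted p as deposited, 6 member probe sets were called, all higher in Ets2KO, beside 2.5% of all. All 6 called genes lay above their Ets1KO arrays in each of the 3 Ets2KO arrays.

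Adam23 encodes an ADAM without protease activity that binds LGI proteins on neurons. Its relative levels (1447946_at) were -3.74, -3.62 and -3.82 in Ets1KO, -3.24, -2.94 and -2.73 in WT, -1.64, -1.55 and -1.32 in Ets2KO, and -2.69 and -3.14 in DKO. The single-loss groups lay on either side of WT without overlap, and the DKO arrays lay around the WT values on this scale. As deposited, the DKO arrays (5.61 and 5.15) lay below WT (5.81 to 6.38) and around Ets1KO (5.33 to 5.52). The relative difference of Ets2KO minus Ets1KO was 2.22 (SE 0.18, limma adjusted p = 0.00303). Its call was kept whichever of the 11 arrays was left out, at 2.13 to 2.29. Adam22, a related ADAM that also lacks protease activity, had relative levels (1435293_at) of -3.80, -3.80 and -3.88 in Ets1KO, -2.44, -2.12 and -3.40 in WT, -0.73, -2.26 and -1.12 in Ets2KO, and -2.57 and -3.05 in DKO. All Ets1KO arrays lay below all others on this scale, and Ets2KO replicate 2 lay among the WT arrays. As deposited, DKO 2 (5.24) lay below the Ets1KO arrays (5.26 to 5.34). Ets2KO was 2.46 higher than Ets1KO on the relative scale (SE 0.42, limma adjusted p = 0.0276). Both ADAMs lay below the array median throughout, and the values carry no detection call, so how far they stand above background is not known.

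Serpini1 encodes neuroserpin, an inhibitor of tissue plasminogen activator. Its relative levels (1416702_at) were -3.33, -3.05 and -3.53 in Ets1KO, -1.53, -0.94 and -1.79 in WT, 0.13, -0.02 and -0.87 in Ets2KO, and -0.40 and -2.70 in DKO. The order Ets1KO, WT, Ets2KO held without overlap, and the 2 DKO arrays were far apart. The relative difference of Ets2KO minus Ets1KO was 3.05 (SE 0.53, limma adjusted p = 0.0290), and the other Serpini1 probe set (1448443_at) gave 2.49 (SE 0.38, limma adjusted p = 0.0221). Serpina3n, a secreted serpin of the acute-phase response, had relative levels (1419100_at) of -0.72, -0.27 and -0.82 in Ets1KO, 0.58, -1.18 and 0.27 in WT, 1.65, 1.78 and 4.12 in Ets2KO, and 1.64 and 1.39 in DKO. Ets2KO replicate 3 was the highest array, and both Cre-treated groups lay above all WT and Ets1KO arrays. Ets2KO was 3.12 higher than Ets1KO on the relative scale (SE 0.66, limma adjusted p = 0.0470). Serpina3n belongs to a cluster of similar genes, so other members of the cluster may contribute to its signal.

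Mmp19, a metalloproteinase that cleaves basement membrane proteins, had relative levels (1421976_at) of -3.34, -2.43 and -1.82 in Ets1KO, -1.46, -2.09 and -1.28 in WT, -0.70, -1.0 and -0.24 in Ets2KO, and -2.03 and -2.10 in DKO. WT and Ets1KO overlapped, and every Ets2KO array lay above all others. Ets2KO was 1.88 higher than Ets1KO on the relative scale (SE 0.38, limma adjusted p = 0.0415). Timp3, the matrix-bound inhibitor of MMPs, Adam17 and ADAMTS enzymes, had relative levels (1449335_at) of 3.41, 3.65 and 3.73 in Ets1KO, 3.54, 3.47 and 3.68 in WT, 4.34, 4.32 and 4.46 in Ets2KO, and 4.69 and 4.25 in DKO. WT and Ets1KO overlapped closely, and the Cre-treated groups lay above both, although as deposited the DKO arrays (12.99 and 12.54) overlapped WT (12.59 to 12.79). The relative difference of Ets2KO minus Ets1KO was 0.78 (SE 0.15, limma adjusted p = 0.0384), and the deposited difference of 0.70 was not called (limma adjusted p = 0.0510). The plot of the 6 called genes by array shows these patterns.

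**Figure D1:**
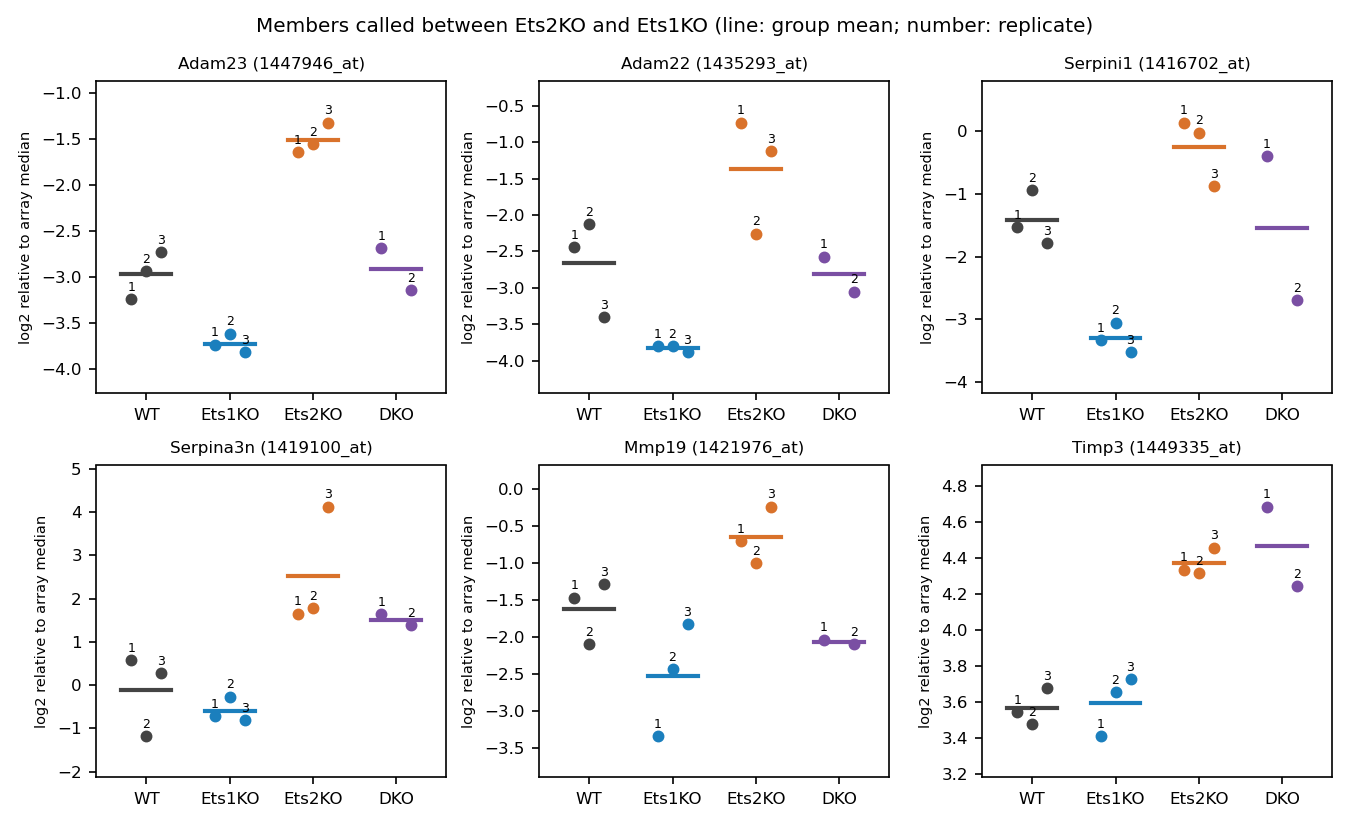
Relative level (deposited log2 value minus the array median, vertical axis) of the 6 genes called between Ets2KO and Ets1KO, with 1 point an array, the replicate number beside it and a line at the group mean. Ets2KO lies above Ets1KO in all 6, by 0.78 for Timp3 to 3.12 for Serpina3n. On this scale the DKO arrays lie near WT for Adam23, whereas as deposited they lie below WT.

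Most of these calls depended on single arrays. Of 11 fits without 1 array, Adam22 (2.14 to 2.90) and Serpini1 (1416702_at, 2.86 to 3.36) were called in 6, Timp3 (0.68 to 0.84) in 4, and Mmp19 (1.48 to 2.24) and Serpina3n (2.32 to 3.56) in 2. The count of 7 fell to 4 without WT replicate 1, to 1 without any of the 3 Ets1KO arrays or Ets2KO replicate 1, to 2 without Ets2KO replicate 2 and to 3 without Ets2KO replicate 3, and rose to 14 without WT replicate 3. With the class of each array by Xist and Eif2s3y as a covariate 0 members were called, as were 0 of all probe sets, and Adam23 then had a relative difference of 2.63 (limma adjusted p = 0.0924). All Ets2KO arrays are male-like and all Ets1KO arrays female-like, so the sex class and the genotype can be set apart only through the WT arrays. Adipocyte markers (4 of 6 measured) had array means of -3.20 to -2.86 in Ets1KO, 1.08 to 4.13 in Ets2KO, -2.06 to 2.88 in WT and -2.26 to 0.63 in DKO on the relative scale. Their part in the result was not tested.

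Ets2KO was next set against WT. Higher were 2 member probe sets, of Adam23 and Timp3, and lower were 0, or 1.9% of the members, where 0.633% of all probe sets were called (0.336% higher and 0.297% lower). As deposited 1 was called, beside 0.58% of all. At an unadjusted limma p below 0.05 there were 15 members (14.3%), where 20.6% of all probe sets passed. The groups did not overlap in 22 member probe sets (21%), where 28.3% of all did, and 20 of the 22 were higher in Ets2KO and 2 lower, beside 14.7% and 13.6% of all probe sets. This comparison shares the Ets2KO arrays with the preceding one.

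Adam23 was 1.47 higher on the relative scale (SE 0.18, limma adjusted p = 0.0267), and its values by array stand above. Timp3 (1419089_at) had relative levels of 2.83, 2.71 and 2.85 in WT, 2.82, 3.07 and 3.19 in Ets1KO, 3.73, 3.71 and 3.75 in Ets2KO, and 4.51 and 3.94 in DKO. The relative difference of Ets2KO minus WT was 0.93 (SE 0.16, limma adjusted p = 0.0487), and the deposited difference of 0.91 had a limma adjusted p of 0.0559. In all 4 Timp3 probe sets the Ets2KO arrays lay above every WT and Ets1KO array, with relative differences from WT of 0.81 to 0.94. Both calls were lost without WT replicate 1, without WT replicate 2 or without any Ets2KO array, with Adam23 at 1.33 to 1.58 and Timp3 at 0.89 to 0.96 over all such fits. The Timp3 call was also lost without WT replicate 3 or any Ets1KO array. In the fit without the DKO arrays, 4 members were called.

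The other members with large differences were not called. Serpina3n had a relative difference of 2.63 (SE 0.66, limma adjusted p = 0.0869), with every Ets2KO array above every WT array. Mmp16, a membrane-type MMP, had relative levels (1437568_at) of 0.84, 0.58 and -2.68 in WT and 1.26, 1.32 and 1.43 in Ets2KO. Its relative difference of 1.76 (SE 0.82, limma adjusted p = 0.261) rests on the low value of WT replicate 3, without which it was 0.63, and the other Mmp16 probe set (1422626_at) gave 1.51 (SE 0.75, limma adjusted p = 0.286), or 0.50 without that array. Ctsc, the cathepsin that activates granule serine proteases, had relative levels of -0.48, -0.11 and -0.75 in WT, -2.85, -0.93 and -1.53 in Ets1KO, 0.87, 1.13 and 1.04 in Ets2KO, and 1.03 and -2.67 in DKO. Its relative difference of Ets2KO minus WT was 1.46 (SE 0.81, limma adjusted p = 0.339).

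By class, all 10 TIMP probe sets had a relative difference above 0 in Ets2KO minus WT (median 0.83), as did 13 of 16 MMP probe sets (median 0.72) and 17 of 19 cathepsin probe sets (median 0.37). The median was 0.02 over 20 ADAM, -0.02 over 13 ADAMTS and -0.16 over 20 serpin probe sets, and 0.01 over all probe sets of the matrix. As deposited, 9 of the 10 TIMP probe sets lay above 0. WT replicate 3 was low in the members, with a relative member median of -0.72 against 0.49 and 0.35 in WT replicates 1 and 2. The relative Ets2KO means of Timp1 (4.25), Timp2 (1460287_at, 4.63) and Mmp14 (1416572_at, 1.39) lay below both of those WT arrays. In all 4 Timp3 probe sets every Ets2KO array lay above every WT array. Probe sets of a gene share their transcript, so these counts are not of independent values. Above every WT and Ets1KO array lay the Ets2KO arrays of 17 member probe sets (16.2%, 11 genes), where 8.47% of all probe sets had that order. In 5 member probe sets (4.76%), of Adam4, Adam23, Ctsc and Serpini1, Ets1KO lay wholly below WT and WT wholly below Ets2KO on the relative scale, where 0.877% of all probe sets did. As deposited, Ets1KO and WT overlapped for Adam4.

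**Figure D2:**
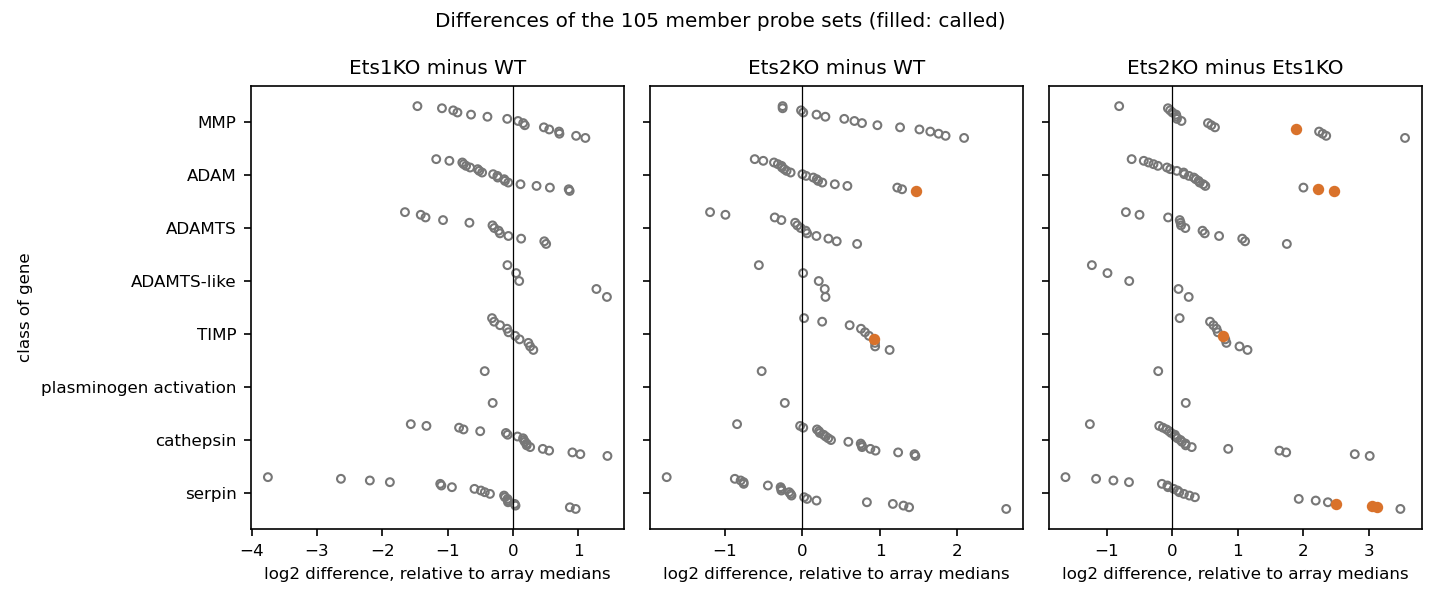
Relative log2 difference (horizontal axis) of each of the 105 member probe sets, by class, for Ets1KO minus WT, Ets2KO minus WT and Ets2KO minus Ets1KO, with called probe sets filled. No point is filled for Ets1KO minus WT, 2 are filled for Ets2KO minus WT and 7 for Ets2KO minus Ets1KO, and all 10 TIMP points lie right of 0 in both comparisons with Ets2KO (9 of 10 as deposited in Ets2KO minus WT). For Timp1 and Mmp14 (1416572_at) the place right of 0 in Ets2KO minus WT rests on the low value of WT replicate 3.

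Ets1KO was compared with WT for the loss of Ets1 under the control virus. By limma adjusted p, 0 members were called on either scale, where 0.00487% of all probe sets (1 probe set, which was lower) and 0% as higher were. At an unadjusted limma p below 0.05 there were 15 members (14.3%), where 9.03% of all probe sets passed, and with array weights in limma 3 members were called. The groups did not overlap in 27 member probe sets (25.7%), where 18.7% of all did. Of these, 17 were lower in Ets1KO and 10 were higher (16.2% and 9.52% of the members, beside 10.7% and 7.96% of all). The median absolute relative difference was 0.45 over the members and 0.19 over all probe sets.

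Serpinf1, which encodes the anti-angiogenic serpin PEDF, had the largest difference. Its relative levels (1416168_at) were 2.49, 1.28 and 0.62 in WT, -4.43, -1.86 and -0.57 in Ets1KO, -2.02, 3.12 and 2.48 in Ets2KO, and -2.05 and -3.15 in DKO. Both groups null for Ets1 lay below all WT arrays, and Ets2KO replicate 1 lay with them. The relative difference of Ets1KO minus WT was -3.75 (SE 1.37, limma adjusted p = 0.484), and the other probe set (1453724_a_at) gave -2.19 (SE 0.93, limma adjusted p = 0.541). Adamts5, an aggrecanase, gave -1.65 (SE 1.61, limma adjusted p = 0.793) and Ctse, an aspartic cathepsin, 1.44 (SE 0.59, limma adjusted p = 0.530). Adamtsl5, a secreted ADAMTS-like protein without protease domain, was above WT in every Ets1KO array in both probe sets, with relative differences of 1.27 and 1.43 that were not called (limma adjusted p = 0.255 and 0.296). It was picked out after its values were seen.

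The DKO arrays were compared with each of the other groups. Against WT, 4 member probe sets were higher and 16 lower on the relative scale (19% of the members), where 36% of all probe sets were called (21.6% higher and 14.4% lower). As deposited, 1 was higher and 39 lower, where 48.8% were called (2.87% and 46%). Against Ets1KO, 15 were higher and 15 lower (28.6%), where 35.4% of all probe sets were called (21.8% and 13.7%), and as deposited 0 and 30, where 47.8% were (1.76% and 46%). Against Ets2KO, 4 were higher and 25 lower (27.6%), where 35.2% were called (20.2% and 14.9%), and as deposited 0 and 55, where 48.8% were (3.12% and 45.7%). Counted in both directions together, the members' share lay below the background in each case other than the deposited comparison with Ets2KO (52.4%). Among lower calls alone on the relative scale, it was 15.2% against WT, 14.3% against Ets1KO and 23.8% against Ets2KO, beside the 14.4%, 13.7% and 14.9% of all probe sets. These differences in shares were not tested. On the deposited scale nearly all calls were of lower levels. The 3 comparisons share the DKO arrays.

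The probe sets of several genes differed widely from each other in DKO. Timp2 is the inhibitor that together with Mmp14 activates pro-Mmp2. Its probe set 1420924_at had relative levels of 3.35, 3.49 and 0.18 in WT, 2.42, 2.43 and 2.47 in Ets1KO, 3.42, 3.17 and 3.80 in Ets2KO, and -3.07 and -3.54 in DKO. The DKO arrays lay below all others by more than 3 log2 units, a relative difference from WT of -5.65 (SE 0.82, limma adjusted p = 0.00119) and a deposited difference of -6.44. Of the other Timp2 probe sets, 4 in number, the relative differences from WT were -0.62 to -0.01 and 0 were called. For 1454677_at, for example, the relative levels were 4.89, 4.83 and 3.75 in WT and 4.65 and 4.33 in DKO, which overlap.

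Mmp14, the membrane-type MMP that activates Mmp2, showed the same split. Its probe set 1416572_at had relative levels of 1.80, 1.50 and -0.73 in WT, 1.11, 1.60 and 1.26 in Ets1KO, 0.95, 1.58 and 1.65 in Ets2KO, and -2.88 and -2.86 in DKO, a relative difference from WT of -3.73 (SE 0.63, limma adjusted p = 0.00236). The other 2 Mmp14 probe sets gave -0.50 and 0.04 and were not called. Adam17, the TNF-alpha converting enzyme, was split in direction. Its probe set 1421857_at had relative levels of 0.70, 0.50 and -0.21 in WT and -3.25 and -2.71 in DKO, and 1421858_at had 1.52, 1.27 and 1.35 in WT and 2.13 and 2.84 in DKO. The relative differences were -3.30 (SE 0.26, limma adjusted p = 8.0e-05) and 1.10 (SE 0.23, limma adjusted p = 0.00584), and 1421859_at gave -0.45. As deposited, the rise of 1421858_at was 0.31 and was not called (limma adjusted p = 0.277).

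Adam10, the alpha-secretase that sheds Notch and amyloid precursor protein, gave relative differences from WT of -3.17 (1450105_at, limma adjusted p = 0.000253), -2.64 (1450104_at) and 0.58 (1428103_at, not called). Adam15 gave -2.25 and -1.43, both called, and -0.18 and 0.57, not called. Adam19 gave -2.16 (1418403_at, limma adjusted p = 0.00497) and 0.61 (not called). Timp3 rose in 1419089_at by 1.42 and in 1449335_at by 0.90 and was lower in 1419088_at, with -1.12 (all called), and 1449334_at gave -0.56. As deposited these rises were 0.63, still called (limma adjusted p = 0.0200), and 0.11, not called. Ctsb, a cysteine cathepsin, gave 1.14 (1417491_at, limma adjusted p = 0.0297) and -1.39 (1448732_at, limma adjusted p = 0.0118), and its other 3 probe sets were not called. The Ctsb rise was lost without any WT array or without DKO replicate 2, at 0.49 to 1.79 over all fits without 1 array, and its deposited difference of 0.35 was not called.

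In Serpinf1 the probe sets had the same sign. They gave -4.07 and -2.38 from WT, neither called on the relative scale (limma adjusted p = 0.0655 and 0.103), and -4.86 and -3.17 as deposited, both called (limma adjusted p = 0.0261 and 0.0297).

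Over the 25 member genes with several probe sets, the median range between probe sets of a gene was 1.06 in DKO minus WT, beside 0.90 over 4785 genes. It was 0.20 in Ets1KO minus WT (0.17 over all genes) and 0.21 in Ets2KO minus WT (0.24). In DKO minus WT the range exceeded 1 in 56% of the member genes and 45.3% of all genes, and 3 member genes (Adam17, Ctsb and Timp3; 12%) were called in both directions, beside 9.49% of all genes. A gene-level direction in DKO is therefore not given for these genes.

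**Figure D3:**
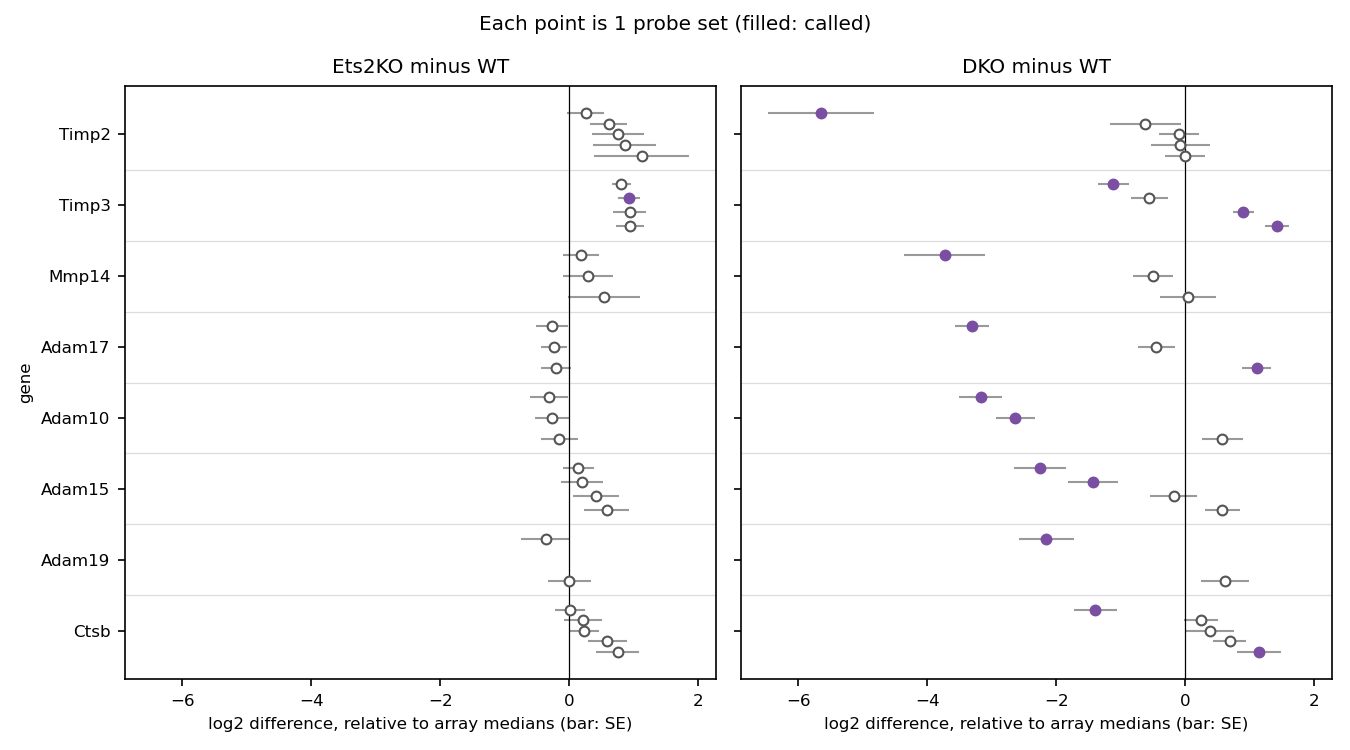
Relative log2 difference with its SE (horizontal axis) of every probe set of 8 member genes, in Ets2KO minus WT (left) and DKO minus WT (right), with called probe sets filled. Probe sets of a gene lie close together on the left and far apart on the right, where Timp2 runs from -5.65 to -0.01 and Adam17 from -3.30 to 1.10.

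Among genes with 1 probe set, Ctse had relative levels of -0.15, 0.35 and -1.54 in WT, 1.11, 1.20 and 0.68 in Ets1KO, 0.19, 0.41 and -1.37 in Ets2KO, and -2.23 and -3.46 in DKO. DKO was the lowest group in every comparison, with relative differences of -2.40 from WT, -3.84 from Ets1KO and -2.58 from Ets2KO (limma adjusted p = 0.0206, 0.00266 and 0.0153). The call against WT was lost without WT replicate 1, WT replicate 2 or DKO replicate 2, at -3.01 to -1.78. Ctsd, the main aspartic protease of lysosomes, had relative levels of 4.54, 3.93 and 3.35 in WT, 4.10, 3.84 and 3.63 in Ets1KO, 4.60, 4.73 and 4.80 in Ets2KO, and 2.24 and 2.74 in DKO. DKO lay below every other array, by -1.45 against WT (SE 0.31, limma adjusted p = 0.00713). Ctsl, a cysteine cathepsin, had relative levels of 4.73, 4.28 and 4.28 in WT, 3.47, 3.86 and 3.48 in Ets1KO, 3.19, 3.54 and 4.03 in Ets2KO, and 4.55 and 4.52 in DKO. Both single losses lay below WT without overlap, at -0.83 and -0.84 (limma adjusted p = 0.415 and 0.101, not called), and DKO was 0.93 above Ets1KO and 0.95 above Ets2KO (limma adjusted p = 0.0204 and 0.0193). As deposited these rises were 0.09 and 0.18 and were not called, and the call against Ets2KO was lost without Ets2KO replicate 1, Ets2KO replicate 2 or either DKO array (0.75 to 1.17).

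The genes of the single-loss comparison differed in where DKO lay. Adam23 was 1.41 below Ets2KO (DKO minus Ets2KO -1.41, limma adjusted p = 0.00102) and 0.81 above Ets1KO (limma adjusted p = 0.0129) on the relative scale, and as deposited -2.19 from Ets2KO and -0.03 from Ets1KO. Adam22 gave -1.44 and Mmp19 (1421976_at) -1.42 against Ets2KO (limma adjusted p = 0.0387 and 0.0281). Serpini1 (1416702_at) was 1.75 and Serpina3n 2.12 above Ets1KO (limma adjusted p = 0.0452 and 0.0499), where the deposited differences of 0.91 and 1.27 were not called. The Serpina3n call was kept only without WT replicate 2, Ets2KO replicate 1 or Ets2KO replicate 3 (1.99 to 2.28 over all 11 fits without 1 array), and the Serpini1 call only without Ets2KO replicate 3 or DKO replicate 2 (0.60 to 2.90).

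Further calls against single groups followed the same lines. Against Ets1KO, Adamtsl5 (1420336_at) was -2.38 (limma adjusted p = 0.000448), while its other probe set (1438266_at) gave -0.75 and was not called. Against WT these probe sets gave -1.11, called, and 0.68, not called, so no gene-level direction is given. Ctso, a cysteine cathepsin, was 1.95 above Ets1KO (limma adjusted p = 0.0449), with a deposited difference of 1.11 that was not called. The Ctso call was kept only without Ets2KO replicates 1 or 3, WT replicate 3 or Ets1KO replicate 1, each left out alone (1.65 to 2.50 over all fits without 1 array). Adam19 (1418402_at) and Adam10 (1428103_at) were 1.09 and 1.23 above Ets1KO on the relative scale, while their other probe sets were lower. As deposited these rises were 0.24 and 0.39 and were not called (limma adjusted p = 0.616 and 0.331). The Adam10 rise was lost without Ets1KO replicate 2, Ets1KO replicate 3 or either DKO array (1.06 to 1.57), and the Adam19 rise was kept only without WT replicate 3, Ets1KO replicate 1 or DKO replicate 1 (0.50 to 1.67). Against Ets2KO, Mmp23 (1417282_at) was -3.32 and Ctsf, a cysteine cathepsin, -2.61 (limma adjusted p = 0.0423 and 0.0383), and the other Mmp23 probe set (1417281_a_at) was -4.18 (limma adjusted p = 0.0186), with Ets2KO replicate 3 the highest array for each. The Mmp23 call was lost without WT replicate 2, Ets1KO replicate 3, Ets2KO replicate 1, Ets2KO replicate 3 or either DKO array (-3.94 to -2.72), and the Ctsf call was kept only without WT replicate 2, WT replicate 3 or Ets2KO replicate 2 (-3.08 to -1.84). Adam9, a widely expressed sheddase, was 1.10 above Ets2KO (limma adjusted p = 0.00850), and its deposited difference of 0.33 was not called. Without DKO replicate 2 the Adam9 call was lost, at 0.96. Adamts8 was 0.41 above Ets2KO on the relative scale (limma adjusted p = 0.0335) and -0.37 as deposited (limma adjusted p = 0.0318), so its direction turns with the scaling.

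With the sex-linked class as a covariate, several DKO calls named here were lost. Against Ets2KO these were Timp2 (1420924_at), Mmp14 (1416572_at), Mmp23 (1417282_at), Ctsf, Ctsl, Adam9, Adamts8, Adam10 (1450105_at) and Adam17 (1421858_at), at limma adjusted p = 0.0515 to 0.686. Against Ets1KO they were Adam19, Ctso, Serpini1 and Serpina3n (0.0553 to 0.0633), and against WT Ctse and Ctsb (0.0571 and 0.0643). This list is not complete. Not examined singly with the covariate were the calls against Ets2KO of Adam22, Adam23, Mmp19, Adam8, Ctse and the other Mmp23 probe set. Most member calls against Ets2KO were lost in that fit. Calls of Adam23 and Ctsl against Ets1KO and of Ctsd against WT, among others, were also not examined singly.

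The interaction asks whether losing Ets2, with Cre, had a different effect without Ets1 than with it, as DKO minus Ets1KO less Ets2KO minus WT. It was called in 3 member probe sets as higher and in 14 as lower (16.2%), where 19.7% of all probe sets were called (10.3% higher and 9.36% lower). As deposited, 0 were higher and 30 lower, where 35.5% were called (1.44% and 34%). Timp2 (1420924_at) gave -6.87 (SE 1.10, limma adjusted p = 0.00381) and Mmp14 (1416572_at) -4.74 (SE 0.84, limma adjusted p = 0.00605), in the probe sets that their companions did not follow. Ctse gave -4.03 and Adam17 (1421857_at) -2.97, and Ctsl gave 1.77, Adam17 (1421858_at) 1.64 and Adamts8 0.63. The 3 values above 0 were not called as deposited, and Adamts8 was then -0.19.

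Arrays of 1 group were often far apart in the members. The range between the 3 WT arrays exceeded 2 log2 units in 26 of 105 member probe sets (24.8%), beside 5.31% of all probe sets, with a median range of 0.97 beside 0.47. In Ets1KO the share was 5.71% beside 1.69%, in Ets2KO 19% beside 4.21%, and between the 2 DKO arrays 14.3% beside 2.73%. WT replicate 3 lay more than 1 below both other WT arrays in 27 member probe sets and above them in 0. In both directions together this was 25.7% of the members, beside 7.13% of all probe sets. Ets2KO replicate 3 lay more than 1 above both others in 15 and below them in 6 (20%, beside 8.67% of all). The DKO arrays were more than 1 apart in 38.1% of the member probe sets, beside 12.5% of all, with DKO 1 higher in 24 and DKO 2 in 16. Adipocyte marker means were 2.88 in WT replicate 3 against -1.24 and -2.06 in the other WT arrays, 4.13 in Ets2KO replicate 3 against 1.08 and 3.32, and 0.63 in DKO 1 against -2.26 in DKO 2. Their part in the spread was not tested.

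Adamts5 showed this spread in each of its 3 probe sets. The relative levels of 1422561_at were -0.09, 1.66 and -0.94 in WT, -2.03, -1.22 and -1.08 in Ets1KO, -3.02, -2.50 and 2.57 in Ets2KO, and 3.17 and -1.81 in DKO. WT replicate 2, Ets2KO replicate 3 and DKO 1 were high in all 3 probe sets. Adamts1, another proteoglycan-cleaving enzyme, had relative levels of -0.87, 0.60 and -0.95 in WT, -1.96, -1.87 and -1.63 in Ets1KO, -1.27, -1.89 and 2.95 in Ets2KO, and 2.90 and 0.21 in DKO. Its highest arrays were Ets2KO replicate 3 and DKO 1. Adamts4 ranged from -3.13 to -1.38 over the 11 arrays, Adamts9 (1437785_at) from -2.20 to 1.13 and Adam12 from -3.22 to 0.44, the last with DKO 1 and WT replicate 2 as its highest arrays. On the relative scale 0 of these genes were called in any comparison.

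Timp1, the secreted inhibitor induced by growth factors, had relative levels of 4.71, 4.52 and 3.46 in WT, 4.01, 3.79 and 4.62 in Ets1KO, 5.39, 5.48 and 1.89 in Ets2KO, and 4.66 and 4.67 in DKO. Ets2KO held both the highest and the lowest arrays, replicates 1 and 2 against replicate 3. Plaur, the urokinase receptor, followed with 2.36, 2.59 and -1.0 in Ets2KO, beside 2.45, 1.49 and 1.59 in WT, 1.90, 1.21 and 1.47 in Ets1KO, and 0.65 and 0.60 in DKO. Mmp3, stromelysin 1, had relative levels of 4.74, 0.81 and -0.38 in WT, 1.89, -0.06 and -1.06 in Ets1KO, 4.74, 5.13 and 1.55 in Ets2KO, and 0.20 and -1.56 in DKO. Its high arrays were WT replicate 1 and Ets2KO replicates 1 and 2. Plaur and Mmp3 were among the members with AP-1 letters in their promoter windows, and Timp1 was not.

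**Figure D4:**
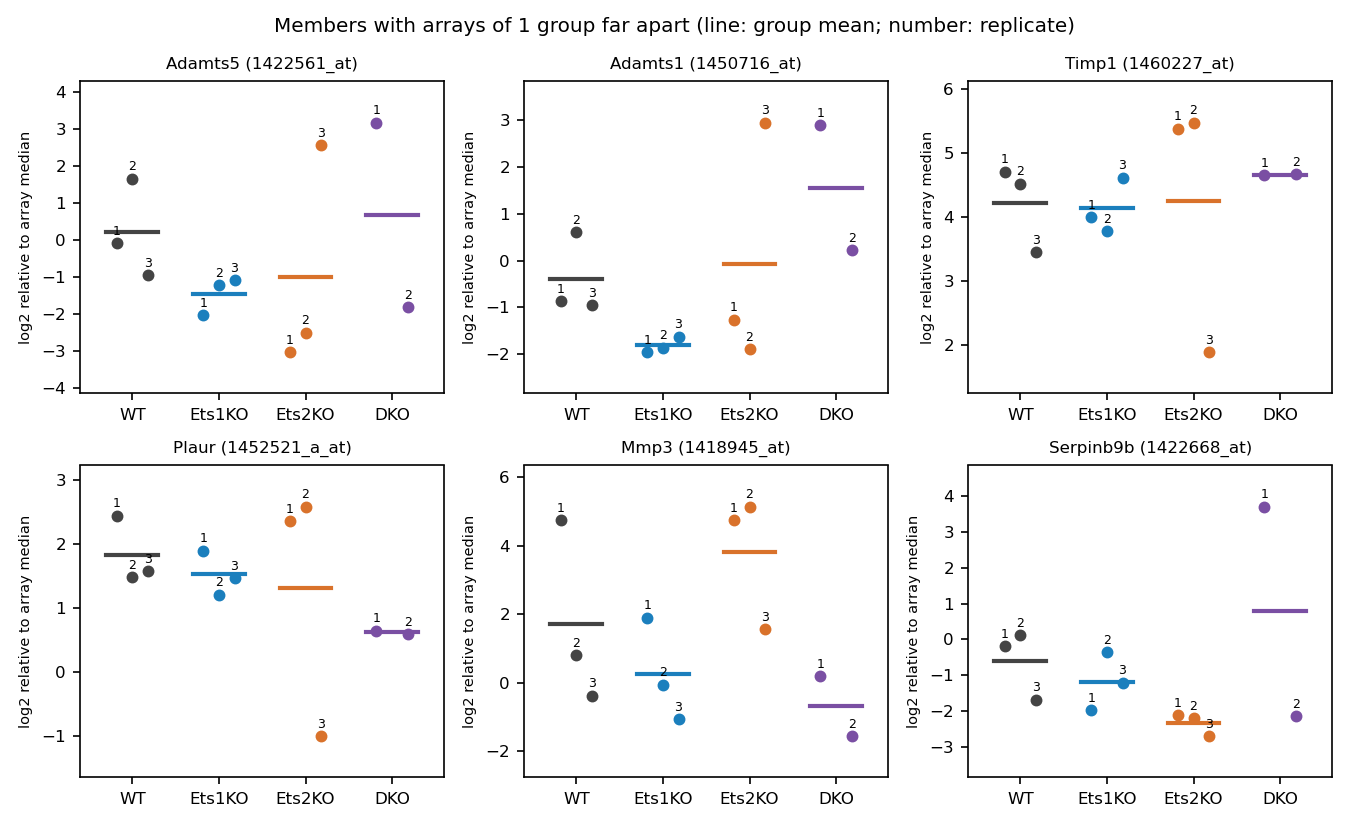
Relative level (deposited log2 value minus the array median, vertical axis) of 6 members whose arrays of 1 group lie far apart, with 1 point an array, the replicate number beside it and a line at the group mean. Ets2KO replicate 3 is the highest Ets2KO array for Adamts5 (2.57) and Adamts1 (2.95) and the lowest for Timp1 (1.89), Plaur (-1.0) and Mmp3 (1.55), and DKO 1 is far above DKO 2 for Serpinb9b.

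Serpinb9b and Serpinb9, intracellular serpins of the granzyme inhibitor family, and Serpinb6b were highest in DKO 1. Serpinb9b had relative levels of -0.20, 0.11 and -1.69 in WT, -1.99, -0.35 and -1.21 in Ets1KO, -2.12, -2.20 and -2.71 in Ets2KO, and 3.71 and -2.15 in DKO. Serpinb9 (1422601_at) was 4.06 in DKO 1 and -0.01 in DKO 2, and Serpinb6b was 4.40 and 0.38. WT replicate 2 was the next highest array for both, at 1.85 and 1.48. These serpins have close paralogs in tandem, so signal may be shared between them. Serpinb2, the plasminogen activator inhibitor PAI-2, ranged from -5.43 (Ets1KO replicate 1) to 3.04 (WT replicate 1). These 4 genes were picked out after their values were seen, and 0 of them were called in any comparison.

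Several other members were named whatever their values, and on the relative scale they were not called, other than Adam8. Mmp2, gelatinase A, ranged from 1.59 to 4.43 (1416136_at) and from 1.15 to 4.07 (1439364_a_at) over the 11 arrays, with Ets2KO replicate 3 highest in both. Plat, tissue plasminogen activator, ranged from 0.03 in WT replicate 3 to 1.69 in WT replicate 1. Mmp10, stromelysin 2, ranged from -3.22 to -1.06 and Ctsk, a collagen-degrading cathepsin, from -2.68 to 0.10. Serpinh1, the collagen chaperone HSP47, ranged from 3.08 to 4.23 (1450843_a_at). Adam8, an ADAM of leukocytes, had relative levels of 2.24, 1.97 and 1.38 in Ets2KO, 1.0, 0.04 and 0.87 in WT, -0.41, 0.85 and -0.86 in Ets1KO, and -1.90 and 0.90 in DKO. It was called lower in DKO than in Ets2KO at -2.36 (SE 0.77, limma adjusted p = 0.0401).

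Other genes of extracellular proteolysis were taken from a list of 42, of which 30 were measured with 44 probe sets. In Ets1KO minus WT 0 were called, beside 0.00487% of all probe sets. In Ets2KO minus WT 2 were higher and 0 lower, beside 0.336% and 0.297% of all probe sets. In Ets2KO minus Ets1KO, which shares the Ets2KO arrays, 2 were higher and 0 lower, beside 1.45% and 1.09%. As deposited these were 2 and 1, beside 2.5% of all in both directions together. In each case the higher ones were Itih5 and a probe set of Lrp1. Itih5, of the inter-alpha-trypsin inhibitor heavy chains, was 10.77, 10.37 and 11.01 in Ets2KO, 6.40, 5.53 and 8.28 in WT, 5.05, 5.78 and 5.63 in Ets1KO, and 5.20 and 4.60 in DKO on the deposited scale. The Ets2KO arrays lay far above all others, with a relative difference of 4.00 from WT (SE 0.58, limma adjusted p = 0.0331) and 5.30 from Ets1KO (limma adjusted p = 0.0121). Lrp1, the receptor that clears protease and inhibitor complexes, was 1.71 higher than WT in 1442849_at (SE 0.27, limma adjusted p = 0.0391), and its other probe set gave 0.59 and was not called.

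In DKO minus WT 10 of these 44 probe sets were higher and 2 lower on the relative scale, where 21.6% and 14.4% of all probe sets were. As deposited 3 were higher and 16 lower, where 2.87% and 46% of all were. All 4 probe sets of Tfpi, the inhibitor of the tissue factor pathway, were higher by 2.54 to 4.39, and 2 of the 4 were not called as deposited (limma adjusted p = 0.0557 and 0.0704). WT replicate 2 (9.73 for 1438530_at, deposited) lay well above WT replicates 1 and 3 (6.58 and 5.89) and close to the DKO arrays (9.74 and 10.63). Tfpi was also above WT in the single losses, by 1.99 to 2.70 in Ets1KO and 2.43 to 3.17 in Ets2KO, without a call. Hpse (heparanase) was 3.17 higher and Reck, a membrane-anchored MMP inhibitor, 2.00 higher, the latter not called as deposited (1.20). Lrp1 (1442849_at) was 1.45 higher, not called as deposited (0.66), and its other probe set gave -0.69 and was not called. Bmp1, the procollagen C-proteinase, was -3.56 (1427457_a_at, limma adjusted p = 0.00156), while its other probe set gave -0.41, and Thbd (thrombomodulin) was -3.23 (limma adjusted p = 0.0437). As deposited, Thbd was 8.20 and 3.98 in DKO, far apart, and 11.19, 8.78 and 10.37 in WT. In Ets1KO it was 5.29, 5.12 and 4.78, with a relative difference from WT of -5.10 that was not called (limma adjusted p = 0.223). Against Ets1KO 6 of the 44 probe sets were higher and 2 lower, beside 21.8% and 13.7% of all. As deposited these were 0 and 14, beside 1.76% and 46%. The largest rises on the relative scale were of Reck (2.70), Lrp1 (1442849_at, 1.32), Bsg (0.95) and Cst3 (0.81). The falls were of Bmp1 (1427457_a_at, -3.45) and Procr (-1.24). Against Ets2KO 5 were higher and 4 lower, beside 20.2% and 14.9%, and as deposited 3 and 18, beside 3.12% and 45.7%. Prss23 (4.47 and 4.95) and Hpse (3.38) were called higher on both scales. Bsg (0.83) and Anxa2 (1419091_at, 0.52) were called higher on the relative scale only. Lower were Itih5 (-5.04), Bmp1 (-4.54 and -1.24) and Lrp1 (1448655_at, -1.28). The interaction was called in 1 as higher and 2 as lower, beside 10.3% and 9.36%. These were Bsg at 0.89, Itih5 at -3.74 and Bmp1 (1427457_a_at) at -4.43. As deposited it was called in 0 and 17, beside 1.44% and 34%.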

How the data were processed

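Transcripts were measured on Affymetrix arrays, and the authors deposited log2 values for each probe set, made by RMA (version not given in the sources used here) according to notes on processing from the submitters. Probe sets were named from the platform annotation: 18824 of 20523 carry 1 symbol, 549 several and 1150 none. Each array's median was subtracted and all probe sets entered 1 linear model of 4 groups and 11 arrays (limma 3.58.1 under R 4.3.3, moderated by eBayes, with 7 residual and 2.22 prior degrees of freedom), which was tested on simulated data. Adjustment was by Benjamini-Hochberg over all probe sets, separately in 7 comparisons. The number of arrays limits the precision, and SE is limma's standard error.

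Named are, in each comparison, the 6 largest rises and falls among called genes (brightest called probe set), with the 4 largest non-overlapping differences in members whose higher group lay above the median probe set where fewer than 4 were called, the 4 largest of the interaction, and 24 measured genes in every case. From the other pathway genes, up to 4 called in each direction are named. The members and gene lists were chosen with earlier results of these data known. A search of proteins for zinc-binding letters was not run. Alternatives were values as deposited, quantile normalization, 1 probe set for each gene, a filter at the median probe set, array weights, trended robust eBayes, only the groups compared, sex-linked class, a replicate block, leaving out each array and, added after the data were seen, no DKO arrays. Same-numbered arrays did not deviate together (0 of 15 pairs above a correlation of 0.1). Deviations from means of 2 or 3 arrays cannot decide whether the numbers pair the arrays. The main model did not pair them. Figures were drawn with matplotlib 3.10.9 in Python 3.11.15.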

Additional observations from a re-analysis of the deposited data

Results flagged for a closer look

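The effect of Ets2 loss with Cre differed between cells with and without Ets1, by limma's interaction term on the relative scale, in 7 named member probe sets. Timp2 (1420924_at) had an interaction of -6.87, Mmp14 (1416572_at) of -4.74 and Adam17 (1421857_at) of -2.97, and each kept its call whichever array was left out, while the other Timp2 and Mmp14 probe sets had no call. Ctse had an interaction of -4.03, and its call was lost without DKO replicate 2 and with the sex-linked class as a covariate (-3.73, limma adjusted p = 0.0764). Ctsl, with 1.77, and Adam17 (1421858_at), with 1.64, kept their calls whichever array was left out but not as deposited. Adamts8 had an interaction of 0.63, called in 4 of 11 fits without 1 array, -0.19 as deposited and 0.75 with the sex-linked class (limma adjusted p = 0.0610). All of these rest on 2 DKO arrays. There, as deposited, 2 of the 4 Ets1 probe sets lay among or just above the WT values and 2 lay below them. Relative to array medians, 1422027_a_at stayed below WT, 1422028_a_at overlapped WT and the other Ets1 probe sets lay above it. No group has more than 3 arrays, so no array was tested as an outlier.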

How the results depend on the processing

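Counts of called member probe sets are given for each alternative that moved them by more than 1.5 times. For Ets1KO minus WT (0 called), array weights gave 3. For Ets2KO minus WT (2 called), deposited values and 1 probe set for each gene each gave 1, array weights 12 and no DKO arrays 4, while the filter at the median, only the groups compared and the sex-linked class each gave 0. For Ets2KO minus Ets1KO (7 called), the filter gave 1, array weights 33, only the groups compared 11 and the sex-linked class 0. For DKO minus WT (20 called), deposited values gave 40, 1 probe set for each gene 7 and the filter 12. For DKO minus Ets1KO (30 called), 1 probe set for each gene gave 13 and the filter 16. For DKO minus Ets2KO (29 called), deposited values gave 55, 1 probe set for each gene and the filter 15 each, and the sex-linked class 4. For the interaction (17 called), deposited values gave 30, 1 probe set for each gene 6 and the filter 11. Fewer probe sets enter under the filter and with 1 for each gene. For the other moves the cause was not tested.

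With the replicate number as a block, the counts were 0 for Ets1KO minus WT, 0 for Ets2KO minus WT, 21, 25 and 27 for DKO against WT, Ets1KO and Ets2KO, 5 for Ets2KO minus Ets1KO and 17 for the interaction. Same-numbered arrays had correlations of -0.31 to 0.10. Leaving out 1 array gave 0 to 0 for Ets1KO minus WT, 0 to 4 for Ets2KO minus WT, 1 to 14 for Ets2KO minus Ets1KO, 17 to 23, 22 to 33 and 23 to 36 for DKO against WT, Ets1KO and Ets2KO, and 15 to 23 for the interaction. Adamts8 turned from 0.41 to -0.37 in DKO minus Ets2KO as deposited, and from 0.63 to -0.19 in the interaction. Of 54 named differences, 36 kept their direction and side of the threshold as deposited and 29 with the sex-linked class, where 16 and 25 lost their call. The values carry no signal over background, so how many members lie near background is not known.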
